A study of Homo sapiens with 12 samples.

Results

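The genes described here are 46 protein-coding genes whose products build ribosomes in the nucleolus, chosen by name from GENCODE release 44 among 20033 protein-coding genes of hg38. The choice was made with earlier results of these data known. The genes fall into 5 groups by role: 6 genes of rDNA transcription, 9 of the small nucleolar ribonucleoproteins (snoRNPs), 17 of the small subunit processome and 40S maturation, 11 of 60S assembly and 3 abundant nucleolar chaperones or helicases. The question was at which of their starts HSF1, the heat shock transcription factor, was found in Huh7 cells, a human hepatocellular carcinoma line. A gene was called bound when the summit of an HSF1 peak lay within 1 kb of any of its annotated transcript starts.

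Both data sets came from untreated cells of WT genotype cultured at 37°C: 1 CUT&Tag library made with an HSF1 antibody and 1 made with an antibody to acetylated lysine 27 of histone H3 (H3K27ac), which the study ran as its positive control. CUT&Tag brings a transposase to an antibody on chromatin, so that the DNA beside the bound protein is cut, tagged and sequenced. There was no replicate of either library, and none of the differences below could be tested against the spread of replicates. Shares carry 95% Wilson intervals, which cover counting error over genes only.

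Ribosome production starts in the nucleolus, where RNA polymerase I transcribes the rDNA repeats into a long precursor. That precursor is modified by snoRNPs, folded and cleaved in the small subunit processome, and assembled with ribosomal proteins into the small and the large subunit. Genes for these factors are classical targets of MYC and its relatives, including MYCN, whose dimers bind the E-box CACGTG. The pentamer CCAAT is the core of the site of NF-Y, a constitutive promoter factor, whereas heat shock elements, the sites of HSF1 trimers, are inverted repeats of the triplet GAA.

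The HSF1 library held 2712212 tags after duplicate removal and 7147 peaks on chromosomes 1 to 22, X and Y. The H3K27ac library held 896393 tags after duplicate removal, only 5.70% of its tags, and 1299 peaks. The H3K27ac list had no peak within 1 kb of a start of any of 14 hepatocyte genes checked, ALB, AFP and HNF4A among them, nor at any of 6 genes of other cell types, so it did not show the liver origin of the cells. A gene without an H3K27ac peak in so thin a list cannot be called unacetylated.

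The sequence under the HSF1 summit is shown first, for the bound gene with the highest fold enrichment in each role group, so that each group is represented by its highest peak. All runs are from hg38, read 5′ to 3′ on the gene's strand, in lower case with CCAAT (on either strand, so also ATTGG) and CACGTG in capitals. They extend up to 50 bases to each side of the summit and stop at annotated exons, and 2 of them are only 26 bases long because the summit lay in an exon. None of the 5 runs held either motif, so nothing is in capitals. At POLR1D and UTP18, however, CCAAT lay within 100 bp of the summit, outside the stretch printed.
POLR1D (chr13:27620661-27620741, plus strand): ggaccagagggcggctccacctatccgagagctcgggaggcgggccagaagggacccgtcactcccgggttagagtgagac
RRP9 (chr3:51942059-51942159, minus strand): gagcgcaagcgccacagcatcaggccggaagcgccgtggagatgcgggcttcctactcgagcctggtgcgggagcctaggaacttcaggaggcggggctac
UTP18 (chr17:51260140-51260165, plus strand): gtgggaccctctgcaggctccgtact
WDR12 (chr2:203014799-203014857, minus strand): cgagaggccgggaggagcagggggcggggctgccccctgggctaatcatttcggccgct
NPM1 (chr5:171387709-171387734, plus strand): ggagtggggttgaaaagcgcttgcgc

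HSF1 peaks lay at 27 of the 46 genes, or 58.7% (44.3% to 71.7%). Over all protein-coding genes the same rule called 25.4%, or 5098 of 20033. Of the coding genes whose promoter window had a GC content within the middle range of the 46 (56.8% to 67.6%), 33.4% of 6847 were bound. The 46 also had more annotated starts, a median of 8 per gene against 5 over all coding genes, which gives more places for a summit to count. With only the start of the canonical transcript, 24 of the 46 were bound (52.2%) against 22.8% of all coding genes. Whether the number of starts has a part in the difference beyond this was not tested.

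The role groups were unequal in count, but their intervals overlapped. Only 1 of 6 rDNA transcription genes was bound (16.7%, 3.01% to 56.4%), against 6 of 9 snoRNP genes (66.7%, 35.4% to 87.9%) and 10 of 17 small subunit genes (58.8%, 36.0% to 78.4%). Of the 60S assembly genes 7 of 11 were bound (63.6%, 35.4% to 84.8%), and NPM1, NCL and DDX21 were bound in 3 of 3 cases. The groups are small, and no difference between them was tested.

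In rDNA transcription, the bound gene was POLR1D, a subunit shared by RNA polymerases I and III. Its peak had a pileup of 12 extended tags and a fold enrichment of 6.44, the ratio of the pileup to the local background with 1 added to each. The summit was 1181 bp upstream of the canonical start and 31 bp from another POLR1D start, and LNX2 started 182 bp from it. No HSF1 summit lay within 1 kb of POLR1A or POLR1B, which form the catalytic core of RNA polymerase I, of POLR1C, another shared subunit, or of UBTF and RRN3, the factors that open the rDNA promoter and recruit the polymerase to it.

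Among the snoRNP genes, RRP9, the U3-specific protein, had the highest values, with a pileup of 23, a fold enrichment of 9.23 and a summit 205 bp upstream of its start. NOLC1, a snoRNP chaperone, followed with a pileup of 17 and a fold enrichment of 8.57. DKC1, the pseudouridine synthase, had its summit 4 bp downstream of its start, with a pileup of 11 and a fold enrichment of 7.59. The other 3 were lower in fold enrichment: NHP2, an H/ACA core protein, at 6.32, and NOP56 and NOP58, the paired core proteins of box C/D particles, at 5.85 and 4.84. The methyltransferase gene FBL and the H/ACA core genes GAR1 and NOP10 had no peak, so both kinds of particle had bound and unbound members.

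The small subunit group held the highest fold enrichment of the 46. UTP18, a processome protein, had a pileup of 24 and a fold enrichment of 11.8, above 96.7% of all bound coding genes. Its summit lay 393 bp upstream of the UTP18 start and 10 bp from a start of MBTD1, which runs the other way, so the peak cannot be given to one gene or the other. WDR75 and WDR43, of the subcomplex that also takes part in rDNA transcription, had fold enrichments of 8.85 and 7.79 with summits 81 bp and 77 bp upstream. DDX10, a helicase, stood at 7.89, with its summit 95 bp upstream. RRP12, a factor of subunit maturation and export, stood at 6.17 with a pileup of 9, but its summit was 24767 bp upstream of the canonical start, at a distal RRP12 start 31 bp away and 84 bp from PGAM1. The remaining 5 ranged from 4.79 to 5.95: LTV1 (pileup 9, summit 80 bp upstream) and NOB1 of late 40S maturation, at 5.95 and 5.62, NOP14 at 5.67, the rRNA acetyltransferase NAT10 at 5.00 and the GTPase BMS1 at 4.79. No peak was found at UTP3, UTP4, UTP14A, UTP15, UTP20, BYSL or TSR1, and so WDR43 and WDR75 were bound while UTP4 and UTP15 of the same subcomplex were not.

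For 60S assembly, WDR12 had a pileup of 23 and a fold enrichment of 9.76. That summit was 103134 bp upstream of the canonical WDR12 start, 9 bp from a distal WDR12 start and 59 bp from a start of NBEAL1. DDX56 and DDX18, both helicases, stood at 8.65 and 7.74. NOP16 had a pileup of 21 with a fold enrichment of 7.19 and the longest peak of the 27, 829 bp, which also covered the start of HIGD2A. PES1, the partner of WDR12 and BOP1 in the PeBoW complex, stood at 7.14 with a pileup of 12 and its summit 257 bp upstream. GNL3 (nucleostemin) and MRTO4, a factor of ribosomal stalk assembly, were low, at 5.07 and 4.43 with a pileup of 6 each. BOP1, NOP2, PPAN and RRP1 had no peak. The start of BOP1, named here after its values were seen, lay 153 bp from that of HSF1 itself.

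NPM1, an abundant nucleolar chaperone, had the highest pileup of the 46, with 27 tags, and a fold enrichment of 10.0. NCL, which binds the precursor rRNA, had a pileup of 17 and a fold enrichment of 7.20. The helicase DDX21 was lower, with 8 tags and a fold enrichment of 5.62. Their summits lay 127, 201 and 67 bp upstream of the canonical starts.

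A larger share of the 46 genes had a peak than of all coding genes. By value, their median fold enrichment was close to that of all bound genes, while their median pileup was lower. The median fold enrichment was 7.14 (quartiles 5.65 and 8.23) against 7.29 (6.25 and 8.74) at all 5098 bound genes, and 11 of the 27 were above that median. The median pileup was 11.0 (8.50 and 17.0) against 14.0 (11.0 and 19.0). At 8 of the 27 genes, NOP58, NOP14, BMS1, NOB1, NAT10, MRTO4, GNL3 and DDX21, the −log10 q-value was below 5. Without peaks below that value, 19 of the 46 were bound (41.3%, 28.3% to 55.7%) against 22.0% of all coding genes, and the medians of fold enrichment changed order, with 7.74 at the 19 against 7.64 at all genes still bound. A call resting on 6 tags, as at BMS1, GNL3 and MRTO4, is less certain than one on 27.

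**Figure D1:**
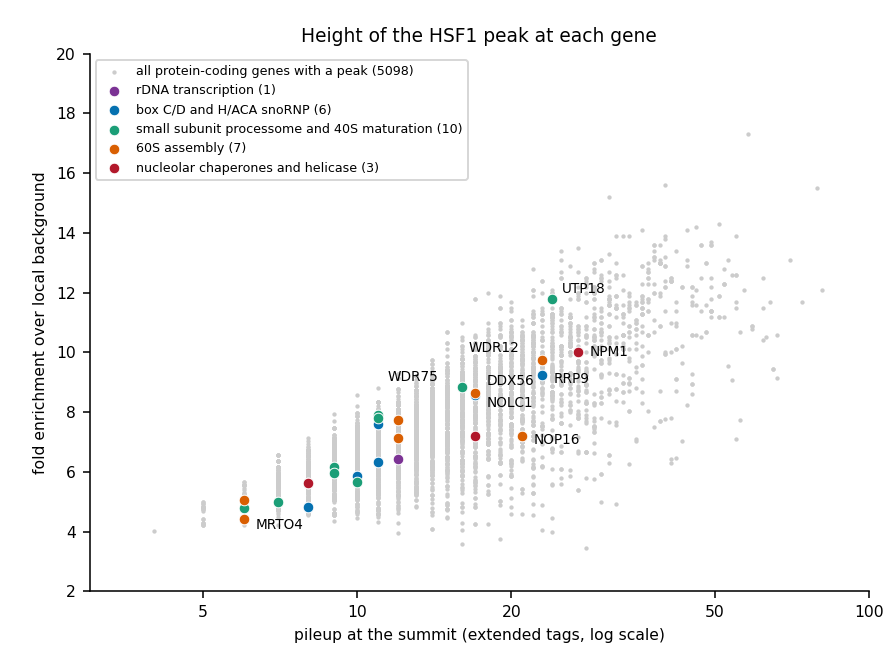
Pileup at the summit in extended tags (log scale) against fold enrichment of the HSF1 peak, for all 5098 protein-coding genes with a peak (grey) and for the 27 bound genes (coloured by role). The coloured points lie within the grey cloud, from MRTO4 at 4.43 to UTP18 at 11.8, and 11 of the 27 lie above its median fold enrichment of 7.29.

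Summits were placed just upstream of the start. They lay upstream of the canonical start at 22 of 27 genes (81.5%, 63.3% to 91.8%), against 77.1% of all bound genes, and within 250 bp of it at 21 of 27 (77.8%, 59.2% to 89.4%) against 64.1%. The median distance was 81.0 bp upstream against 107 bp over all bound genes. By annotation, 17 summits were upstream of every own exon, 5 in an exon of another transcript of the gene, 2 in the 5′ UTR exon, 2 in a coding exon and 1 in an intron of NCL. The 1 kb limit cut through an empty range, since the farthest summit called bound was that of UTP18, 393 bp from a start, and the nearest one not called was 4451 bp from FBL.

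The other ribosome biogenesis genes had a lower share bound by value, a difference that was not tested. Of 128 such genes 46 had a peak (35.9%, 28.1% to 44.5%), an interval that just overlaps that of the 46, with a median fold enrichment of 7.06. The 5 highest were DCAF13 at 11.0, NOL8 at 9.66, UTP6 at 8.99, NOL11 at 8.75 and WDR3 at 8.72. By role, 2 of 10 further rDNA transcription genes were bound, 18 of 44 small subunit genes, 18 of 48 60S assembly genes, 4 of 12 snoRNP assembly and rRNA modification genes and 4 of 14 exosome genes. Cytosolic ribosomal protein genes were bound at 39.3% of 89 (29.8% to 49.7%) and mitochondrial ones at 34.6% of 78 (25.0% to 45.7%). By value the shares of these 3 lists were above that of all coding genes and below that of the 46. These lists, like the 46, were chosen with earlier results of these data known.

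The E-box was held by a larger share of the 46 promoters than of the other lists below. CACGTG is its own reverse complement, so that both strands read alike. In the promoter window, from 250 bp upstream to 50 bp downstream of the canonical start, it occurred at 19 of 46 genes (41.3%, 28.3% to 55.7%), against 8.76% of all coding genes and 9.90% (9.22% to 10.6%) of those with a like GC content. The other ribosome biogenesis genes held it in 27.3% (20.4% to 35.6%), the cytosolic ribosomal protein genes in 7.87% and the mitochondrial ones in 8.97%. It was most frequent by count in the small subunit group, with 10 of 17 genes, followed by 60S assembly with 5 of 11 and the snoRNP genes with 4 of 9. None of the 6 rDNA transcription genes and none of NPM1, NCL and DDX21 had one in the window. Within 1 kb of the start, however, CACGTG lay downstream in NCL (first at base 472), NPM1 (base 726), DDX21 (base 447) and POLR1B (base 154). In POLR1D it lay 479 bp upstream, and POLR1A, POLR1C, UBTF and RRN3 had none within that distance. Within 1 kb, 69.6% of the 46 held it against 29.2% of all coding genes.

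Nearly all of these E-boxes sat at the start itself. In a window chosen after the positions were seen, within 50 bp to either side of the canonical start, 18 of the 46 genes (39.1%, 26.4% to 53.5%) held CACGTG, against 3.28% of all coding genes and 3.80% of those with a like GC content. The share was 21.1% for the other ribosome biogenesis genes, 2.25% for cytosolic and 1.28% for mitochondrial ribosomal protein genes. First bases ran from 16 bp upstream, in UTP4, to base 36 downstream, in NOP2, and 12 of the 18 were downstream. UTP14A, with its E-box 241 bp upstream, was the 1 gene of the 19 without one near the start.

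E-box sites are shown for the 11 genes whose promoter or summit window (100 bp to either side of the HSF1 summit) held both motifs. In these a MYC-type and an NF-Y-type site lie in the same window, but not always close together. In UTP4, for example, they began 16 and 225 bp upstream of the start. For GNL3 the window with both was the summit window, for the others the promoter window. Each run has 26 bases, hg38, 5′ to 3′ on the gene's strand, with the E-box nearest the start in capitals.
FBL (chr19:39846358-39846383, minus strand): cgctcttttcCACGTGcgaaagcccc
RRP9 (chr3:51941894-51941919, minus strand): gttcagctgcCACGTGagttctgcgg
GAR1 (chr4:109815783-109815808, plus strand): gccagaggggCACGTGgcgccggtga
NOP10 (chr15:34343132-34343157, minus strand): aattgacgaaCACGTGacgcggtcgg
UTP4 (chr16:69132623-69132648, plus strand): agcgcgcgcgCACGTGgggccggggc
UTP18 (chr17:51260540-51260565, plus strand): agcgaggttcCACGTGagcgcctgcg
RRP12 (chr10:97401293-97401318, minus strand): acagggtatcCACGTGggttctgagc
LTV1 (chr6:143843356-143843381, plus strand): cctggggctgCACGTGtggtgaggcc
PES1 (chr22:30591882-30591907, minus strand): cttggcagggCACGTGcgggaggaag
MRTO4 (chr1:19251809-19251834, plus strand): tcttccgccgCACGTGgattcagcgc
GNL3 (chr3:52686028-52686053, plus strand): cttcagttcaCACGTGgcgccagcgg

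The CCAAT sites of 10 of these 11 genes follow, that of RRP12 being left out, as 25 bases with the pentamer nearest the start in capitals. ATTGG is CCAAT read on the other strand.
FBL (chr19:39846574-39846598, minus strand): gggtgctcgcATTGGggaagaggaa
RRP9 (chr3:51941993-51942017, minus strand): gcagaaggacCCAATggagcagtag
GAR1 (chr4:109815642-109815666, plus strand): tccgcgggtgATTGGcttttttttt
NOP10 (chr15:34343086-34343110, minus strand): ggtggaccgaATTGGgaccgctggc
UTP4 (chr16:69132414-69132438, plus strand): gccctcgcccCCAATcccggctcgg
UTP18 (chr17:51260366-51260390, plus strand): cacccggaagATTGGccctcccgga
LTV1 (chr6:143843302-143843326, plus strand): ctcctcggcgATTGGtccgtttcca
PES1 (chr22:30591946-30591970, minus strand): caggcatctcATTGGgcagcccgca
MRTO4 (chr1:19251715-19251739, plus strand): tgcagtgcacATTGGgtcaggcaca
GNL3 (chr3:52686078-52686102, plus strand): ccttctacagCCAATatgaaaaggc

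HSF1 peaks were about as frequent with an E-box at the start as without one. Of the 18 genes with CACGTG within 50 bp of the start 11 were bound (61.1%, 38.6% to 79.7%), and of the 28 others 16 were bound (57.1%, 39.1% to 73.5%). Over all coding genes the shares were 31.2% of 658 and 25.3% of 19375. Bound genes with an E-box there were RRP9, NOP14, UTP18, WDR43, RRP12, LTV1, NAT10, PES1, MRTO4, GNL3 and DDX18, and unbound ones were FBL, GAR1, NOP10, UTP4, UTP20, BYSL and NOP2. The RRP12 peak was at the distal start, 24767 bp from the start with the E-box. E-boxes lay within 100 bp of the HSF1 summit at only 4 of 27 bound genes, NOP14, WDR43, NAT10 and GNL3 (14.8%, 5.92% to 32.5%), against 7.26% of all bound genes.

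CCAAT was about as common at the 46 genes as elsewhere. On either strand it occurred in 19 of 46 promoter windows (41.3%, 28.3% to 55.7%), against 36.1% of all coding genes, 39.3% of those with a like GC content and 41.4% of the other ribosome biogenesis genes. These windows held 25 pentamers, 8 forward and 17 reverse, of which 14 began between 120 and 40 bp upstream of the start. DDX10 had 3, and RRN3, FBL, NHP2 and NCL had 2 each. Of the bound genes 44.4% held it (27.6% to 62.7%) and of the unbound ones 36.8% (19.1% to 59.0%), while over all coding genes the shares were 44.8% and 33.1%. The direction was alike, but among the 46 the intervals overlap widely.

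Under the summits, CCAAT lay within 100 bp at 12 of 27 bound genes (44.4%, 27.6% to 62.7%) against 36.5% of all bound genes. These were POLR1D, NOP56, NHP2, UTP18, WDR75, LTV1, DDX10, NOP16, GNL3, MRTO4, DDX56 and NCL. In DDX10 all 3 pentamers of the promoter window fell there, with first bases 102, 94 and 65 bp upstream around a summit 95 bp upstream.

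Both motifs together occurred in 10 of 46 promoter windows (21.7%, 12.3% to 35.6%), against 3.08% of all coding genes and 14.8% of the other ribosome biogenesis genes. RRP9, UTP18, RRP12 (at its distal start), LTV1, PES1 and MRTO4 of these were bound, and FBL, GAR1, NOP10 and UTP4 were not. In RRP9 the pentamer began 103 bp upstream and the E-box 5 bp upstream of the start. UTP18 had a pentamer 170 bp upstream and E-boxes at 89 bp upstream and at base 5.

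Other short motifs differed from one another. CCGGAAG, the core bound by ETS factors, was in 18 of 46 windows (39.1%, 26.4% to 53.5%), against 14.1% of all coding genes and 19.8% of those with a like GC content, but the other ribosome biogenesis genes held it in 49.2% and mitochondrial ribosomal protein genes in 41.0%. It was in 8 of 27 bound windows (29.6%) and 10 of 19 unbound ones (52.6%), whereas over all coding genes it was in 21.9% of bound and 11.4% of unbound windows, the opposite order. Neither difference was tested. GGGCGG, the GC box of SP factors, was in 31 of 46 windows (67.4%, 53.0% to 79.1%) against 61.3%. GAANNTTC, one inverted pair of the heat shock element, was in 2 of 46 (4.35%, with an interval up to 14.5%), POLR1A and NOP58, against 5.47%. No bound gene of the 27 had it within 100 bp of the summit (0%, up to 12.5%), and 2.18% of all bound genes did.

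H3K27ac peaks lay at 6 of the 46 genes (13.0%, 6.12% to 25.7%), against 3.31% of all coding genes and 7.81% of the other ribosome biogenesis genes. Cytosolic ribosomal protein genes had one in 10.1% (5.41% to 18.1%), an interval that overlaps that of the 46, and mitochondrial ones in 7.69%. Among the 46, UTP18 had the highest H3K27ac peak, with a pileup of 14 and a fold enrichment of 9.49. That summit lay 415 bp upstream of the UTP18 start, in the stretch shared with MBTD1, so it too cannot be given to one gene or the other. The other H3K27ac peaks ran from 5.56 to 6.58 in fold enrichment with pileups of 6 to 9, at WDR75, NOB1, NOP14, POLR1B and POLR1A. The median fold enrichment of the 6 was 6.21 against 6.17 at the 664 coding genes with such a peak. Counting each H3K27ac peak only for the nearest coding start left 5 of 46 genes (10.9%) against 2.67% of all coding genes.

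HSF1 and H3K27ac peaks coincided at 4 genes, NOP14, UTP18, WDR75 and NOB1. In each the peaks shared at least 1 bp, and their summits were 97, 22, 277 and 1 bp apart. POLR1A and POLR1B, by contrast, had H3K27ac peaks and no HSF1 peak, with the nearest HSF1 summit 89453 and 20175 bp away. Of the bound genes 14.8% (5.92% to 32.5%) had an H3K27ac peak, and of the unbound ones 10.5% (2.94% to 31.4%). Over all coding genes these shares were 10.1% and 0.998%. With a −log10 q-value of at least 5, UTP18 alone kept an H3K27ac peak (2.17%) against 1.28% of all coding genes.

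Many of the starts were shared with a neighbour. Of the 46 genes 14 had the start of another protein-coding gene head to head within 1 kb (30.4%, 19.1% to 44.8%), against 12.6% of all coding genes. Related lists were alike or higher by value, with 34.4% of the other ribosome biogenesis genes (26.7% to 43.0%) and 37.2% of mitochondrial ribosomal protein genes. Cytosolic ribosomal protein genes stood at 21.3%. Over all coding genes 49.2% of those with such a neighbour were bound and 22.0% of those without. Among the 46 it was 7 of 14 (interval 26.8% to 73.2%), and 20 of the 32 without one (62.5%, 45.3% to 77.1%), so the order by value was the other way, with overlapping intervals. The bound pairs were RRP9 with PARP3, NOP14 with GRK4, UTP18 with MBTD1, WDR12 with CARF (the WDR12 peak itself was at the distal start), NOP16 with HIGD2A, MRTO4 with EMC1 and GNL3 with PBRM1. A peak between such starts cannot be told apart as one gene's or the other's, and at UTP18 and MRTO4 the neighbour's start was nearer to the summit. Counting each peak only for the nearest coding start left 25 of 46 bound (54.3%) against 21.2% of all coding genes.

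Another feature of the 46 was snoRNA genes inside them, on the same strand. Introns of such host genes release the guide RNAs that the snoRNP proteins carry. NOP56, NOP58, DKC1, WDR43, TSR1, PPAN, GNL3 and NCL were hosts, 8 of 46 (17.4%, 9.09% to 30.7%) against 1.28% of all coding genes. The trait was not particular to the 46, since 31.5% of the 89 cytosolic ribosomal protein genes were hosts (22.8% to 41.7%). For the other ribosome biogenesis genes the share was 3.12% and for mitochondrial ribosomal protein genes 1.28%. Of the 8 hosts among the 46, 6 were bound (interval 40.9% to 92.9%), TSR1 and PPAN not, against 40.6% of the 256 coding hosts. The GC content of the promoter windows was no different by value, with a median of 63.8% against 63.7% over all coding genes, while the ratio of observed to expected CpG was 0.893 against 0.775. This ratio was close to 0.893 in the related lists too. It was 0.915 for the other ribosome biogenesis genes, 0.914 for cytosolic and 0.886 for mitochondrial ribosomal protein genes. All bound coding genes had 0.865.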

How the data were processed

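Peaks of 1 HSF1 and 1 H3K27ac CUT&Tag library were used. The authors aligned reads with Bowtie2, removed duplicates and called each library alone with MACS 2.1.4 (hg38, no control, p-value cutoff 1e-05, tags shifted by -100 bp and extended to 200 bp). In the deposited lists the pileup is a signal: the count of extended tags at the summit, with no scaling to depth. The fold enrichment deposited there is a ratio of this pileup to the local background, with 1 added to each. Their −log10 p-value and −log10 q-value columns were deposited too, although the file headers state that no q-value was calculated. How the q-values were made is not given in the sources used here, so they served as a filter only. The 2 H3K27ac ChIP-seq lists, which are on hg19, and the RNA-seq samples were not analysed here.

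Gene models were GENCODE release 44, on chromosomes 1 to 22, X and Y. Where a gene had several peaks, that with the highest fold enrichment was taken. Motifs were searched on both strands. The lists and the 46 genes were chosen with earlier results of these data known. All 46 genes are named, with pileups, fold enrichments and sequences for the bound gene with the highest fold enrichment in each role group and for genes holding CCAAT and CACGTG in 1 window. The sequence of the CCAAT site of RRP12 is not reported here. Genes outside the 46 are named as head-to-head partners, as starts near a summit (chosen after their values were seen) or as the 5 highest of the other list. No test was made, since each group is 1 library, and the depths, 2712212 and 896393 tags, limit which peaks could be called. Other distances, starts, filters and windows were tried. The peak and motif searches were tested on simulated data. Analyses ran in Python 3.11.15 with pysam 0.24.0, scipy 1.17.1, pandas 2.3.3 and numpy 2.4.6, and plots in matplotlib 3.10.9.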

Additional observations from a re-analysis of the deposited data

How the results depend on the processing

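Of 39 alternatives, 4 of them chosen after seeing the data, 30 left the value within the 95% interval of the one reported, and 9 moved it outside. With peaks of a −log10 q-value of at least 5 only, the share with an HSF1 peak was 41.3% (all coding genes 22.0%), and the share with an H3K27ac peak 2.17% (1.28%). CCAAT was held by 69.6% within 500 bp to either side (63.7%), by 93.5% within 1 kb (87.1%) and by 23.9% between 120 and 40 bp upstream (20.9%). CACGTG was held by 60.9% within 500 bp (18.3%), by 69.6% within 1 kb (29.2%), by 73.9% when CACGCG and CGCGTG were added (22.3%) and by 14.8% of bound genes within 100 bp of the summit (7.26%). These windows and patterns are wider or narrower by construction. The 8 other settings of the HSF1 share ran from 52.2% to 60.9%, and all coding genes from 21.1% to 28.4%. The median fold enrichment ran from 6.44 to 7.74, below that of all bound genes except with the −log10 q-value of at least 5 (7.74 against 7.64), and the median pileup from 11.0 to 12.0. With 1 library per antibody, no replicate could be left out. No paired analysis was possible because no group has a second library. The depth of the H3K27ac library, 896393 tags, limits any statement on genes without such a peak.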
